A study of Mus musculus with 12 samples.

Results

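The genes described here are 10 that serve the uptake of apoptotic cells outside the TAM receptor family, taken by name from a table of 46095 genes. They are the bridging protein gene Mfge8, the phosphatidylserine receptor genes Timd4, Stab1 and Stab2, the scavenger receptor gene Cd36, the integrin subunit genes Itgav and Itgb3, the endocytic receptor gene Lrp1, the engulfment adaptor gene Elmo1 and the cholesterol transporter gene Abca1. RNA was sequenced from 6 whole pancreas samples of Axl-/-Mertk-/- mice (AMKO 1 to 6) and 6 of C57BL/6J wild type mice (WT 1 to 6), all at postnatal day 56. Caerulein went into every mouse, wild type included, by the intraperitoneal route at 100 µg/kg, as 10 injections spaced an hour apart, and pancreas was taken 12 h after the first. Caerulein is a cholecystokinin analogue whose overdose injures acinar cells and causes acute pancreatitis. AXL and MERTK, members of the TAM receptors, themselves bind dying cells through GAS6 and protein S, so the comparison asks how other uptake genes stood in inflamed pancreas without them. No untreated pancreas was analysed here. Sources used here do not state on which strain the AMKO alleles were kept, so strain and receptor loss cannot be told apart.

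Efferocytosis is the clearance of dying cells by phagocytes. A dying cell shows phosphatidylserine on its surface. Receptors bind it directly, as TIM-4 and the stabilins do, or through a soluble bridge such as MFG-E8, which binds phosphatidylserine with one end and the integrins alpha v beta 3 and alpha v beta 5 with the other. Signals through ELMO1 and DOCK proteins activate the GTPase RAC1, which drives engulfment. The cholesterol of the eaten cell loads the nuclear receptor LXR, whose target ABCA1 exports it. In the pancreas such genes are read in macrophages, but also in endothelium, fibroblasts, adipocytes and epithelium, so whole tissue RNA mixes these sources.

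Libraries held 10668637 to 15184371 counts, and 18548 to 20596 genes had at least 1 count. The targeted gene Axl stood at 66 to 187 counts in AMKO libraries and 545 to 1086 counts in WT libraries. Markers of acinar cells summed to 131600 to 245400 CPM (counts scaled to TMM-adjusted library size) in AMKO and 145500 to 224600 CPM in WT, so the labelled tissue carried its defining transcripts. Some libraries stood apart, in both genotypes for neutrophil markers and within one genotype for hepatocyte and lymphocyte markers. AMKO 3, AMKO 6, WT 3 and WT 6 had neutrophil marker scores of -1.58 to -1.41, against 0.03 to 1.79 in the other 8 libraries. The hepatocyte transcript Alb stood at 2 to 7 counts in WT 1 to 3 and at 141 to 309 counts in the other 9 libraries. AMKO 1 and AMKO 5 had the highest summed B and T cell markers, 153.9 and 52.1 CPM, against 0.734 to 21.5 CPM in the other 10 libraries. The results below are therefore also given without these libraries where that matters.

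The RefSeq promoter table (GRCm38.p6) matched 9 of the 10 genes, all but Itgb3. Shown here are the 250 bases just upstream of the annotated start, read 5′ to 3′ on the gene's strand, for 5 genes on which the results turn. These are Itgav, the gene that differed between genotypes, its ligand gene Mfge8, the pair Stab1 and Lrp1 whose levels ran together across libraries, and Abca1, an LXR target. Capitals mark a match on either strand to GAGGAA (the core of PU.1 and ETS sites), GGGCGG (SP1 box), TGANTCA (AP-1), TATAAA (a core promoter box) or an LXR DR4 repeat, a spaced pair of nuclear receptor sites whose pattern was chosen after the Abca1 sequence was seen.
Itgav (chr2:83724147-83724396, plus strand): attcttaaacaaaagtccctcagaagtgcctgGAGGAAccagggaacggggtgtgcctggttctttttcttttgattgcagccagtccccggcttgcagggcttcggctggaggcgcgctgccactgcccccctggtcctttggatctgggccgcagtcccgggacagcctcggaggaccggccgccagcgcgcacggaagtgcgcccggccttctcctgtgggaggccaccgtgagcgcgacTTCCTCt
Mfge8 (chr7:79149061-79149310, minus strand): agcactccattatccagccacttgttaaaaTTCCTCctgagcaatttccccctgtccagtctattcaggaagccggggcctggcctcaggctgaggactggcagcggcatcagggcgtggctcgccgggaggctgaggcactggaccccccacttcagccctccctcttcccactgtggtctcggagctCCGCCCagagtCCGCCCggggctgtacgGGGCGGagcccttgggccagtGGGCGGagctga
Stab1 (chr14:31168642-31168891, minus strand): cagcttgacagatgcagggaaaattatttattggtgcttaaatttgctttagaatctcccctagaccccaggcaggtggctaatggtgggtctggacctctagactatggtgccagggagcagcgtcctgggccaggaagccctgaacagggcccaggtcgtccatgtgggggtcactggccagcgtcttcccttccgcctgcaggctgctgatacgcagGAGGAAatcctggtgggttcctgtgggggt
Lrp1 (chr10:127621149-127621398, minus strand): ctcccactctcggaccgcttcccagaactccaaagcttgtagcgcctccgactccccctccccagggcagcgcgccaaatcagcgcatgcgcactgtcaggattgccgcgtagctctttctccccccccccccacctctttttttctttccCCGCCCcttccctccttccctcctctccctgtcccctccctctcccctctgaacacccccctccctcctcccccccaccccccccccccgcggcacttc
Abca1 (chr4:53159896-53160145, minus strand): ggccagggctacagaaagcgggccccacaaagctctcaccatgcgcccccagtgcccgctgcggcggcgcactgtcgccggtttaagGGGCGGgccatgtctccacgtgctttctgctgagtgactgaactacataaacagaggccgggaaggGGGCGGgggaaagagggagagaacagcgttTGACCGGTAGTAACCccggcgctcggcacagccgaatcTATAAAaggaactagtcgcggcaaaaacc
The Abca1 window held the DR4 repeat, which was present in 0.177% of 32851 promoter windows of the same length, and also the core promoter box, found in 12.4%. The Itgav window held 2 GAGGAA matches and the Stab1 window 1, while 23.3% of all windows held at least 1. Mfge8 held 4 GGGCGG matches and also 1 GAGGAA match, Abca1 held 2 GGGCGG matches and Lrp1 held 1, and 32.7% of all windows held at least 1. AP-1 matches, found in 6.75% of all windows, occurred in none of the 10 windows found for the 9 matched genes. These matches describe letters only and were not tested as binding sites.

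Of the 10 genes, 9 passed the filter on low counts. Per kb of exon, which allows levels of different genes to be set side by side, Cd36 and Mfge8 were the most abundant. Cd36 stood at 30.1 ± 7.74 CPM per kb in AMKO and 30.2 ± 5.57 in WT, and Mfge8 at 29.3 ± 4.43 in AMKO and 25.4 ± 3.89 in WT (SD, n = 6 each), so these neighbours did not differ beyond their spread. Lrp1 (9.76 ± 3.04 CPM per kb in AMKO and 9.96 ± 2.72 in WT) and Itgav (7.78 ± 0.907 in AMKO and 9.92 ± 1.13 in WT) came next and overlapped. Abca1 (4.59 ± 1.22 CPM per kb in AMKO and 4.16 ± 0.721 in WT) and Stab1 (4.24 ± 1.35 in AMKO and 4.24 ± 0.921 in WT) formed the next pair, again within each other's spread. Timd4 had 1.87 ± 2.54 CPM per kb in AMKO and 1.75 ± 1.14 in WT. Itgb3 (0.549 ± 0.411 in AMKO and 0.467 ± 0.192 in WT) and Elmo1 (0.549 ± 0.256 in AMKO and 0.427 ± 0.176 in WT) were low and alike, and Stab2 was last at 0.0088 ± 0.0080 in AMKO and 0.0084 ± 0.0055 in WT. Lengths are of all annotated exons merged, so a gene with long or rarely used exons reads low on this scale.

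**Figure D1:**
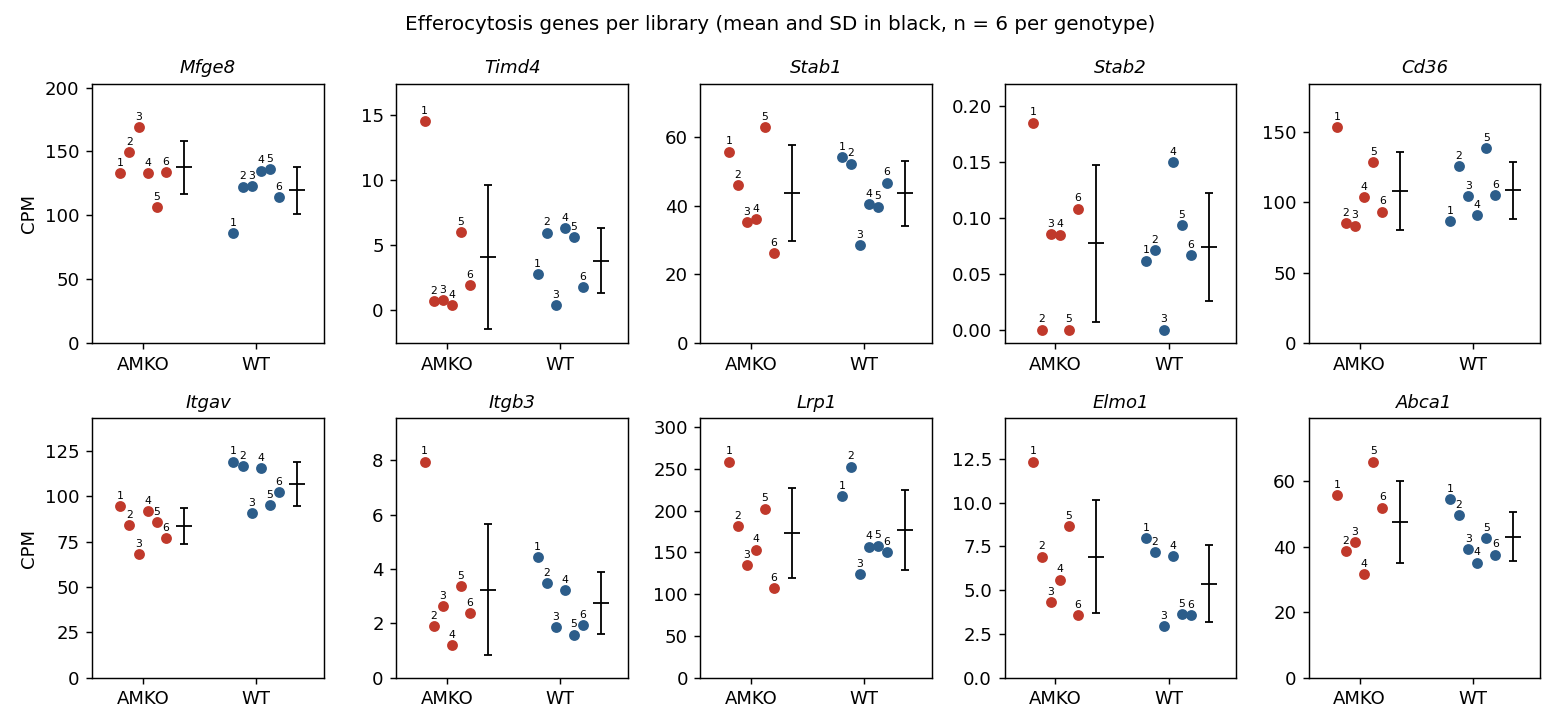
CPM (vertical axes, linear) of the 10 uptake genes in each library, with AMKO points in red, WT points in blue, the replicate number above each point, and the mean with SD (n = 6 per genotype) in black. Itgav points of AMKO sit between 68.2 and 94.5 CPM against 90.7 to 119.1 CPM in WT, while AMKO 1 stands high for Timd4, Itgb3 and Elmo1.

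Across genotypes, 1 of the 9 tested genes passed the test, Itgav, which was lower in AMKO. Over all 13743 genes tested, 5.78% passed in either direction, 2.41% higher and 3.37% lower in AMKO. Of the 9 genes, 6 had fitted log2 fold changes above 0 and 3 below, with a median of 0.13, against a median of 0.00 over all genes tested. None of the 9 had AMKO and WT libraries that did not overlap in CPM, as 3.54% of all genes tested did. With 1 call among 9 genes, the count does not stand out from that background. The test was edgeR's quasi-likelihood F test with Benjamini-Hochberg adjustment over all genes, which gives every adjusted p below. In whole tissue, fewer cells of a type and less RNA per cell cannot be told apart.

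Mfge8 on chromosome 7 (79133768 to 79149060, minus strand, GRCm38) encodes the secreted bridge MFG-E8. It stood at 133.0, 149.4, 169.2, 133.0, 106.5 and 133.8 CPM in AMKO 1 to 6, against 86.1, 122.4, 122.8, 134.9, 135.9 and 114.2 CPM in WT 1 to 6. AMKO 2 and AMKO 3 lay above every WT library, WT 1 lay below every AMKO library, and the rest overlapped. The fitted ratio of AMKO to WT was 1.15 (95% confidence interval 0.963 to 1.38, log2 fold change 0.20, SE 0.12, adjusted p = 0.344). Mfge8 lies 53.3 Mb from Axl on the same chromosome. Its order of libraries was unlike that of every other uptake gene, with the mean difference in rank between 4.5 places, from Itgav, and 5.5 places, from Stab1, where the median over 11174 genes was 4 places. The marker list closest to it was that of hepatocytes at 2 places, whose 3 lowest values are those of WT 1 to 3. The Mfge8 log2 fold change was 0.11 (SE 0.13, adjusted p = 0.73) against WT 4 to 6 alone. Against WT 1 to 3 alone it was 0.32 (SE 0.15, adjusted p = 0.3445). The part of hepatocyte transcripts in the Mfge8 values was not tested.

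Among the phosphatidylserine receptors, Timd4 varied most. Timd4 (chromosome 11, 46810800 to 46844332) encodes TIM-4, which tethers phosphatidylserine on resident macrophages. It had 14.5, 0.715, 0.765, 0.425, 6.01 and 1.95 CPM in AMKO 1 to 6, and 2.77, 5.96, 0.408, 6.29, 5.61 and 1.79 CPM in WT 1 to 6. AMKO 1 lay above every other library, AMKO 5 lay within the upper WT values, and AMKO 2, 3 and 4 lay below every WT library except WT 3. The SD in AMKO exceeded the mean (4.06 ± 5.52 CPM, against 3.81 ± 2.48 CPM in WT), and the fitted ratio of 1.10 had an interval of 0.350 to 3.43 (adjusted p = 0.941). Without AMKO 1 and AMKO 5, a choice made after seeing the data, the log2 fold change was -1.99 (SE 0.65, adjusted p = 0.0549), and without AMKO 1 alone it was -0.91 (SE 0.69, adjusted p = 0.446). Those 2 libraries also held the highest summed B and T cell markers and the highest summed macrophage markers (1274 and 1386 CPM, against 250 to 845 CPM elsewhere). Timd4 differed from the B and T cell sum by 1.5 places of rank on average from the adipocyte sum by 1.67 places and from the macrophage sum by 2.17 places. Both libraries were also the highest of AMKO in summed adipocyte markers (426.6 and 188.7 CPM) and fibroblast markers (967.4 and 1080 CPM). The part of these cells in the Timd4 values was not tested.

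Stab1 on chromosome 14 (31139013 to 31168641) encodes stabilin-1, a scavenger and phosphatidylserine receptor of alternatively activated macrophages and sinusoidal endothelium. Its levels were 55.7, 45.9, 35.1, 36.1, 62.9 and 26.1 CPM in AMKO 1 to 6, and 54.0, 52.2, 28.4, 40.5, 39.7 and 46.7 CPM in WT 1 to 6. AMKO 5 was the highest library and AMKO 6 the lowest, so AMKO enclosed the WT range, and the ratio was 1.003 (0.744 to 1.35, adjusted p = 0.994). Stab2, its paralogue of liver, spleen and lymph node sinusoidal endothelium, had 3, 0, 1, 1, 0 and 1 counts in AMKO 1 to 6 and 1, 1, 0, 2, 1 and 1 counts in WT 1 to 6. With 6 counts per genotype it was not tested, and a difference was not detectable at this depth.

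Cd36 on chromosome 5 (17781690 to 17888801) encodes a scavenger receptor and fatty acid transporter of macrophages, adipocytes and capillary endothelium that takes up apoptotic cells together with alpha v beta 3. It stood at 153.7, 85.0, 83.4, 103.8, 128.4 and 93.5 CPM in AMKO 1 to 6 and at 86.7, 125.7, 104.3, 90.9, 138.3 and 104.9 CPM in WT 1 to 6. Both genotypes spanned nearly the same range, and the ratio was 0.997 (0.787 to 1.26, adjusted p = 0.991). Its order of libraries was nearest to the lymphatic endothelial sum (1.5 places), the fibroblast sum (1.83 places) and the adipocyte sum (2.33 places), and farther from the macrophage sum (3.67 places).

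Itgav on chromosome 2 (83724397 to 83806916, plus strand) encodes integrin alpha v, the subunit shared by the MFG-E8 receptors. It stood at 94.5, 84.0, 68.2, 91.9, 86.0 and 76.9 CPM in AMKO 1 to 6, against 119.1, 116.7, 90.7, 115.4, 95.3 and 102.3 CPM in WT 1 to 6. AMKO 2, 3, 5 and 6 lay below every WT library, while AMKO 1 and AMKO 4 lay just above WT 3 and below the other 5. Itgav fell by 21.6% in AMKO (ratio 0.784, interval 0.682 to 0.902, log2 fold change -0.35, SE 0.09, adjusted p = 0.0424) and stood 713th by p among the 13743 genes. The log2 fold change stayed between -0.39 and -0.30 in the 12 fits without 1 library, but the adjusted p in those fits ran from 0.0273 to 0.0948 and 9 of them lost the call, all but those without AMKO 1, WT 3 or WT 5. The adjusted p was 0.152 with total counts as library size, 0.0661 without the low count filter, 0.162 without the 4 libraries lowest in neutrophil markers (-0.33), 0.214 against WT 4 to 6 alone (-0.31), 0.152 against WT 1 to 3 alone (-0.38), and the call held with the macrophage score as a covariate (-0.39, adjusted p = 0.00456). Itgav lies 44.9 Mb from Mertk on the same chromosome. Exons of the antisense gene Gm13684 overlap its own, and since no source used here says whether counting used strand, those reads cannot be told apart. The same holds for small exon overlaps of Elmo1 with Gm32036 and of Stab1 with Nt5dc2.

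Itgb3 on chromosome 11 (104608000 to 104670476) encodes integrin beta 3, the partner of alpha v on macrophages and endothelium and of alpha IIb on platelets. It had 7.96, 1.91, 2.64, 1.19, 3.37 and 2.38 CPM in AMKO 1 to 6 and 4.44, 3.48, 1.88, 3.22, 1.59 and 1.93 CPM in WT 1 to 6. AMKO 1 was the highest library and AMKO 4 the lowest, so AMKO enclosed the whole WT range. The ratio was 1.18 with an interval of 0.647 to 2.17 (adjusted p = 0.772), and without AMKO 1 the log2 fold change was -0.25 (SE 0.32, adjusted p = 0.67). Defining platelet markers were near 0, with a sum of 6 genes of at most 0.587 CPM in AMKO and 0.449 CPM in WT.

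Partner genes of these receptors were read next, where 3.37% of all genes tested were called lower in AMKO and 2.41% higher. Of the 7 partner genes, all tested, 1 was lower in AMKO and none higher, with a median of -0.11. This was Itgb6, the epithelial alpha v partner that activates latent TGF-beta, at 24.1, 19.5, 24.5, 25.2, 21.9 and 15.04 CPM in AMKO 1 to 6 and 36.2, 49.0, 23.7, 38.7, 29.0 and 33.9 CPM in WT 1 to 6. Only WT 3 reached into the AMKO range. The log2 fold change was -0.69 (SE 0.16, adjusted p = 0.0253), and the call was lost without AMKO 2, WT 2 or WT 4 (adjusted p up to 0.0636), with only WT 4 to 6 (0.089) or WT 1 to 3 (0.12) as controls, without the 4 libraries lowest in neutrophil markers (0.0552), and with total counts as library size (0.0712). Itgb5, which forms the other MFG-E8 receptor, stood at 64.3 ± 13.03 CPM in AMKO and 51.7 ± 5.63 CPM in WT and did not pass (0.31, SE 0.12, adjusted p = 0.142). Itgb5 was called higher with limma voom (adjusted p = 0.0439) and without AMKO 1 and AMKO 5 (0.0387). Per kb of exon Itgb1, which pairs with many alpha subunits, was the highest (115.9 ± 6.17 CPM per kb in AMKO and 125.2 ± 8.55 in WT). On the same scale Itgb5 was far above Itgb3 (18.1 ± 3.67 CPM per kb in AMKO and 14.6 ± 1.59 in WT), Itgb6 lay between (3.05 ± 0.546 in AMKO and 4.93 ± 1.22 in WT), and Itgb8 was lowest (0.0932 ± 0.0322 in AMKO and 0.180 ± 0.0801 in WT). Itgb8 (adjusted p = 0.108), Itgb1 (0.377), the alpha IIb gene Itga2b (0.128), the LRP1 chaperone gene Lrpap1 (0.985) and the LRP1 and stabilin-2 adaptor gene Gulp1 (0.57) did not pass.

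**Figure D2:**
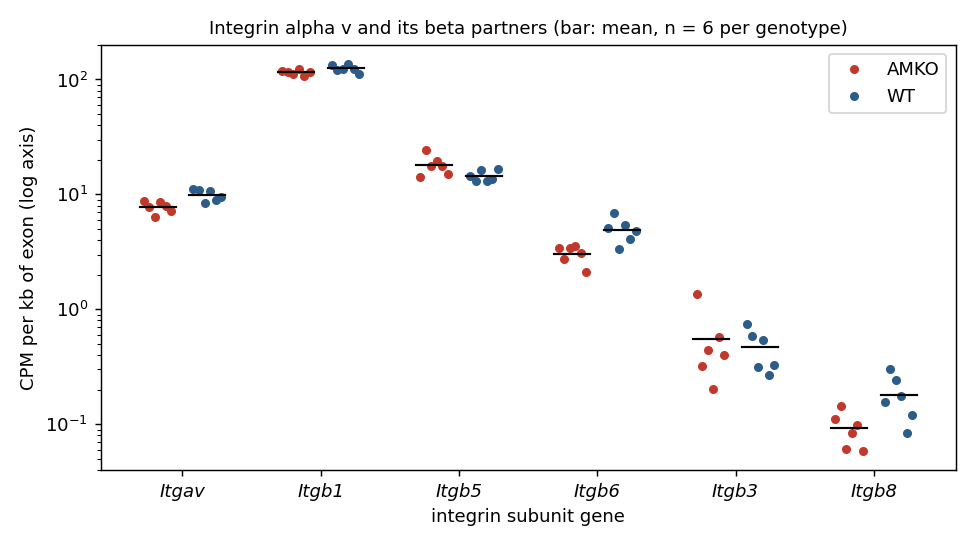
CPM per kb of exon (vertical axis, log scale) of Itgav and of the genes of its beta partners, with AMKO in red and WT in blue, a point per library and a bar at the mean (n = 6 per genotype). Itgb5 points lie well above Itgb3 points in both genotypes. Itgav, Itgb1, Itgb6 and Itgb8 have lower means in AMKO, of which Itgav and Itgb6 were called, and Itgb3 and Itgb5 have higher means.

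Some markers of endothelium, duct and fibroblasts were also called lower in AMKO, as were 3.37% of all genes tested. Summed blood endothelial markers were 94.5 to 151.1 CPM in AMKO and 139.9 to 199.0 CPM in WT (2-sided exact permutation p = 0.0108, adjusted p = 0.119 over 11 lists), with all 7 tested genes below 0 and 1, Kdr, called lower. Without WT 5 the difference of this sum was -39.7 CPM and passed (exact permutation, adjusted p = 0.0238), and in the 11 other fits without 1 library the adjusted p was 0.119 to 0.298. Cldn5 was listed at 0 throughout. Summed duct markers were 1093 to 1734 CPM in AMKO and 1398 to 1708 CPM in WT (exact permutation p = 0.13, adjusted p = 0.476), with all 5 fitted values below 0 and Epcam and Muc1 called lower. Over fibroblast and stellate markers the sums were 509.9 to 1080 CPM in AMKO and 656.4 to 1160 CPM in WT (exact permutation p = 0.242, adjusted p = 0.517). Of these 8 markers 6 had fitted values below 0, with Pdgfrb called lower. Pdgfra (0.02) and Des (0.09) were above 0. Fitted values were also below 0 for 5 of 6 tested neutrophil, 4 of 5 lymphatic endothelial and all 6 adipocyte markers, none of them called. Itgav differed in rank by 2.33 places from both the blood endothelial and the neutrophil sum. From the fibroblast sum it differed by 2.5, the adipocyte sum by 2.67, the lymphatic endothelial sum by 3.17 and the duct sum by 3.5 places. The part of these cells in the Itgav value was not tested. The genes whose order of libraries was most like that of Itgav were Asxl2 (0.5 places), Cflar, which encodes the caspase-8 inhibitor c-FLIP, and the spectrin gene Sptbn1 (0.667 places each), out of 11174 candidates.

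Lrp1 on chromosome 10 (127538161 to 127621148) encodes a large endocytic receptor that binds calreticulin on dying cells. It stood at 258.7, 181.8, 134.3, 153.2, 202.4 and 107.1 CPM in AMKO 1 to 6 and at 217.0, 252.7, 123.9, 157.0, 158.1 and 150.5 CPM in WT 1 to 6. The ranges nearly coincided, and the ratio was 0.980 (0.719 to 1.34, adjusted p = 0.952). It was the most counted of the 10 genes, with 13614 counts over AMKO and 14654 over WT.

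Elmo1 on chromosome 13 (20090596 to 20608353) encodes the engulfment adaptor that works with DOCK proteins downstream of phosphatidylserine receptors. It had 12.3, 6.91, 4.34, 5.603, 8.65 and 3.57 CPM in AMKO 1 to 6 and 7.95, 7.17, 2.94, 6.96, 3.64 and 3.59 CPM in WT 1 to 6. AMKO 1 and AMKO 5 lay above every WT library, and the other 4 AMKO libraries lay within the WT range. The ratio was 1.29 (0.798 to 2.08, adjusted p = 0.546), and without AMKO 1 and AMKO 5 the log2 fold change was -0.06 (SE 0.30). RefSeq gives Elmo1 a pair of promoter windows, and counts per gene do not show which start was used.

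Of the 12 other engulfment genes, all tested, 2 were lower in AMKO and none higher (median 0.03). Over all genes tested, 3.37% were called lower in AMKO and 2.41% higher. Dock1, the exchange factor that partners ELMO proteins, stood at 24.5, 25.3, 24.2, 27.9, 32.5 and 26.7 CPM in AMKO 1 to 6 and 36.1, 36.8, 40.4, 35.5, 31.0 and 47.0 CPM in WT 1 to 6. AMKO 5 alone reached above a WT library, WT 5. The log2 fold change of -0.49 (SE 0.10, adjusted p = 0.0141) was called in all 12 fits without 1 library, with adjusted p up to 0.0402, but not with WT 4 to 6 (0.128) or WT 1 to 3 (0.0503) as the controls, or without the 4 libraries lowest in neutrophil markers (-0.34, 0.218). Ptk2, the focal adhesion kinase that acts downstream of integrins, was 57.6 to 67.4 CPM in AMKO and 69.3 to 78.6 CPM in WT, with no overlap (-0.23, SE 0.06, adjusted p = 0.0424), though dropping any library but AMKO 4 ended the call (adjusted p up to 0.108), as did dropping the low-neutrophil libraries (0.226) or AMKO 1 with AMKO 5 (-0.17, 0.0955). Such a lack of overlap was found in 3.54% of all genes tested. The Ptk2 call was also lost under RLE scaling (0.0525), total counts (0.0633), no count filter (0.134), and with WT 4 to 6 (0.237) or WT 1 to 3 (0.19) as the controls. Rac1 (0.06, SE 0.08, adjusted p = 0.699) and Crk (-0.07, SE 0.09, adjusted p = 0.676) did not pass. Under other settings Dock5 was called lower with the replicate block (adjusted p = 0.04275). Rhog was called higher without WT 1 (adjusted p = 0.03483).

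Abca1 on chromosome 4 (53030787 to 53159895), whose promoter is shown above, encodes the transporter that exports cholesterol after a cell has been eaten. It stood at 55.8, 38.6, 41.4, 31.8, 66.1 and 52.0 CPM in AMKO 1 to 6 and at 54.5, 49.6, 39.4, 35.2, 42.6 and 37.6 CPM in WT 1 to 6. AMKO held both the highest library and the lowest, and the ratio was 1.10 (0.864 to 1.41, adjusted p = 0.66). Of all genes tested, 2.41% were called higher in AMKO and 3.37% lower. Among 12 genes of cargo degradation and cholesterol efflux, 11 were tested, 1 was higher in AMKO and none lower (median 0.09). The one was Rab7, a GTPase of late endosomes, at 261.9 to 327.7 CPM in AMKO and 240.8 to 266.6 CPM in WT (0.26, SE 0.07, adjusted p = 0.0441), and dropping any library but AMKO 1 or AMKO 5 ended the call (adjusted p up to 0.11). The Rab7 call was also lost with total counts (0.237), no count filter (0.0963), WT 4 to 6 (0.238) or WT 1 to 3 (0.199) as the controls, and without the low-neutrophil libraries (0.294). Lamp1 of the same list was 365.8 to 442.2 CPM in AMKO and 320.7 to 360.5 CPM in WT. These did not overlap, as in 3.54% of all genes tested, but Lamp1 did not pass (0.22, SE 0.07, adjusted p = 0.0599). It was called higher with RLE scaling (0.0482), DESeq2 (0.000943), limma voom (0.0197), without AMKO 1 (0.0336) and without AMKO 1 and AMKO 5 (0.0392). The LXR genes Nr1h3 (0.00, SE 0.14, adjusted p = 0.996) and Nr1h2 (0.15, SE 0.10, adjusted p = 0.382), and the LXR target Abcg1 (-0.11, SE 0.15, adjusted p = 0.71), did not pass.

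**Figure D3:**
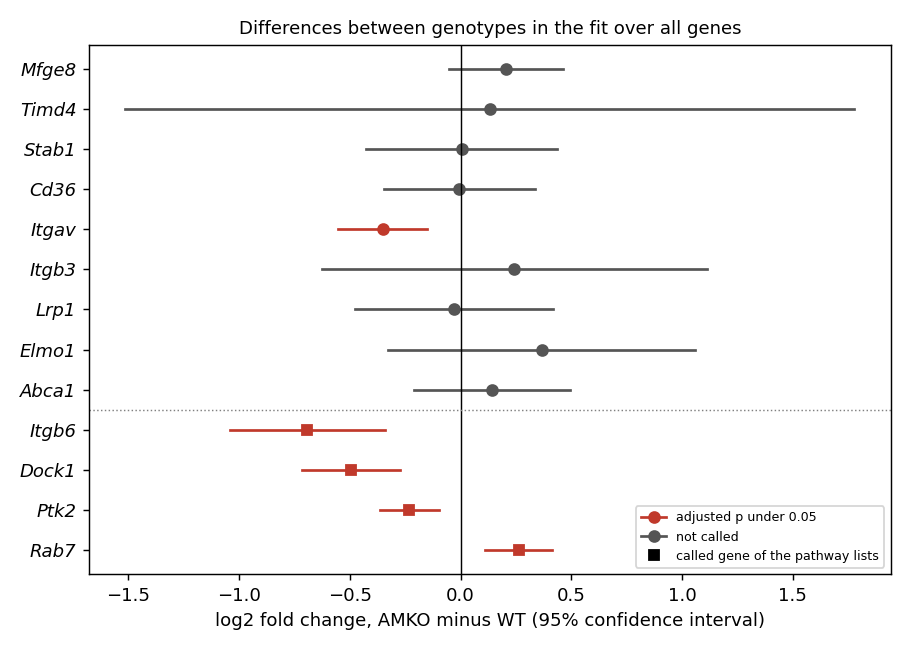
Log2 fold change, AMKO minus WT, with its 95% confidence interval (horizontal axis) for the 9 tested uptake genes above the dotted line and the 4 called genes of the pathway lists below it. Itgav is the one of the 9 called, and the widest interval is that of Timd4, -1.51 to 1.78.

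Over all 7 pathway lists, 68 of 75 genes were tested and 4 passed, the 3 lower and 1 higher named above, or 5.88% against 5.78% of all genes tested. The median was 0.00. None of the 13 tested members of the list of other phosphatidylserine and scavenger receptors passed (median -0.01), where the most abundant were the integrin alpha M gene Itgam (-0.01, SE 0.40, adjusted p = 0.992) and the endotoxin co-receptor gene Cd14 (-0.12, SE 0.13, adjusted p = 0.642). None of 8 tested bridging proteins and opsonins passed (median 0.15), among them complement C3 (-0.06, SE 0.24, adjusted p = 0.911) and calreticulin, Calr (0.03, SE 0.09, adjusted p = 0.901). Edil3, the homologue of Mfge8, had too few counts to be tested. Under other settings Scarb1 was called higher, with limma voom (0.0424) and the macrophage covariate (0.0359). Msr1 (0.0146) and Olr1 (0.0218) were called lower with the covariate. Thbs1 was called lower with the covariate (0.00166) and without AMKO 1 and AMKO 5 (0.0468). Nor did any of 7 find-me genes pass (median 0.10), with the sphingosine kinase genes Sphk1 and Sphk2 at 0.24 and 0.10 (adjusted p = 0.46 and 0.614). Among 10 genes of phosphatidylserine exposure and do-not-eat-me signals none passed (median -0.17), the most abundant being Cd24a (-0.36, SE 0.10, adjusted p = 0.0541) and the flippase gene Atp11a (-0.07, SE 0.08, adjusted p = 0.639). Cd24a was called lower with upper quartile scaling (0.0433), total counts (0.0243), DESeq2 (0.0116), limma voom (0.0388) and the macrophage covariate (0.0337). Cd47 (-0.29, adjusted p = 0.115) was called lower with limma voom (0.022), the covariate (0.0189), and without AMKO 1 (0.0329) or AMKO 1 and AMKO 5 (0.0102). Ano6 was called lower with DESeq2 (0.0404).

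Libraries of one genotype differed widely for some of the uptake genes. The ratio of the highest to the lowest library within AMKO was 34.15 for Timd4, 6.696 for Itgb3 and 3.457 for Elmo1. Within WT it was 15.42, 2.795 and 2.71 for the same genes. Itgav had ratios of 1.386 in AMKO and 1.313 in WT, Cd36 1.842 and 1.595, and Mfge8 1.589 and 1.579. In AMKO the coefficient of variation was 136% for Timd4, 74.8% for Itgb3 and 46.7% for Elmo1, and in WT it was 65.1%, 41.1% and 41.2% for the same genes. Likeness between genes was measured as the mean absolute difference between their ranks over the 12 libraries. Stab1 and Lrp1 were the closest pair (1.17 places), and each differed from Elmo1 by 1.33 places. Elmo1 was close to the macrophage sum (1.17 places) and to the B and T cell sum (1.33 places). Lrp1 was close to the neutrophil sum (1.17 places) and to the B and T cell sum (1.67 places). Stab1 differed from the B and T cell sum by 1.5, the neutrophil sum by 1.67 and the macrophage sum by 1.83 places. Both the macrophage and the neutrophil sums are low in AMKO 3, AMKO 6, WT 3 and WT 6, and these orders share the same 12 libraries.

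**Figure D4:**
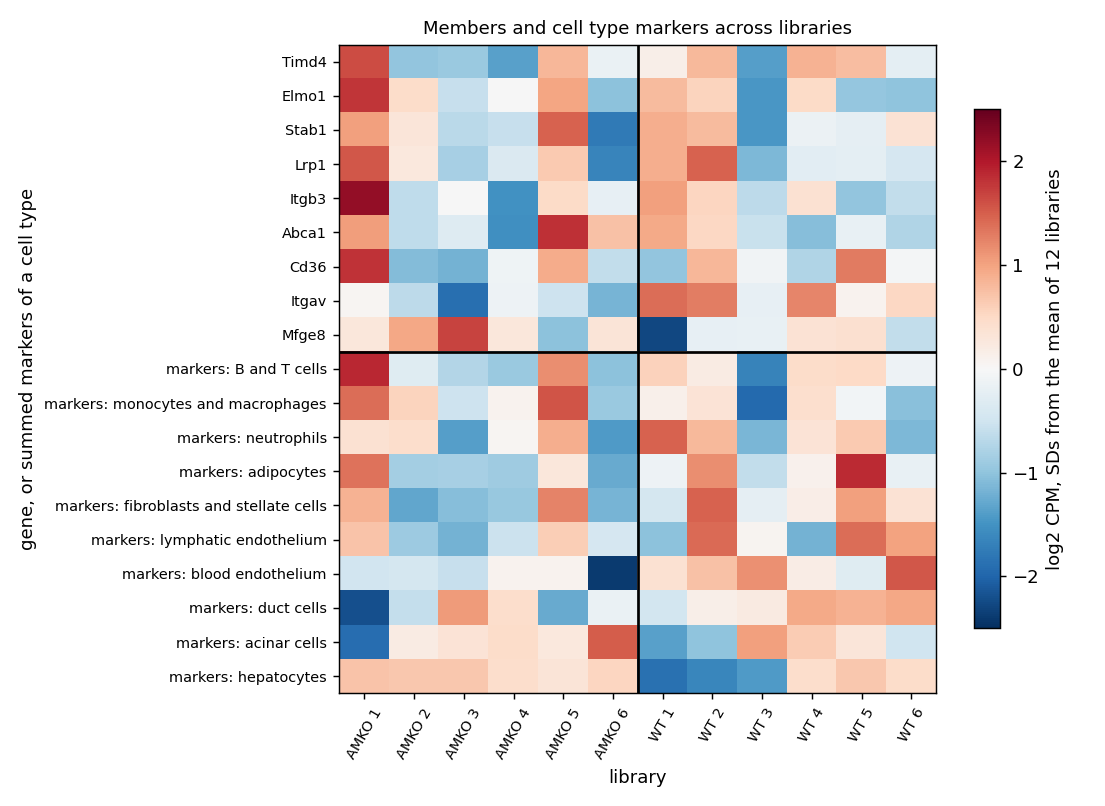
Log2 CPM of the 9 tested uptake genes (upper rows) and of summed cell type markers (lower rows) in each library, as SDs from the mean of the 12 libraries, with AMKO left and WT right of the vertical line. Elmo1, Stab1, Lrp1 and the macrophage and B and T cell markers are above their mean in AMKO 1 and AMKO 5 and below it in AMKO 6 and WT 3, while Mfge8 is highest in AMKO 3 and lowest in WT 1.

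The genes nearest to each of the others in order of libraries are given next, from the same measure. Nearest to Elmo1 were Was, which encodes the Wiskott-Aldrich actin regulator of blood cells, and Tm6sf1 (0.333 places each), then Sash3, a lymphocyte adaptor gene (0.5 places). Nearest to Lrp1 were Ehbp1l1, Wdfy4 and Nckap1l, the gene of a WAVE complex subunit of blood cells (0.5 places each), and to Stab1 Fnbp1 (0.5 places), the inhibitory leukocyte receptor gene Lair1 and Zfp608 (0.667 places each). Timd4 had Rrm1, a ribonucleotide reductase subunit gene (0.333 places), the ficolin gene Fcna and Sp110 (0.833 places each), and Itgb3 had D16Ertd472e and Gimap9 (1 place each) and Exoc6 (1.17 places). Nearest to Cd36 were the natriuretic peptide receptor gene Npr1 and Suv39h1 (1 place each) and Cdh13 (1.17 places). Mfge8 had Saraf (1 place), Rab10os and Azgp1 (1.17 places each), and Abca1 had Sdha (1.17 places), Gtf2i and Fzd1 (1.33 places each). These are the best of 11174 candidates each and are a description only.

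The sums of the remaining marker lists overlapped between the genotypes. For single markers, the share of all genes tested that was called was 2.41% higher in AMKO and 3.37% lower. Summed macrophage markers were 410 to 1386 CPM in AMKO and 250 to 794.3 CPM in WT (2-sided exact permutation p = 0.206, adjusted p = 0.517), with 10 of 11 fitted values above 0 and the mannose receptor gene Mrc1 called higher. Neutrophil markers were 52.9 to 398.6 CPM in AMKO and 67.4 to 649.9 CPM in WT (exact permutation p = 0.463, adjusted p = 0.587), and none of 6 tested passed. B and T cell markers were 1.95 to 153.9 CPM in AMKO and 0.734 to 21.5 CPM in WT (exact permutation p = 0.48), adipocyte markers 57.0 to 426.6 CPM in AMKO and 94.2 to 631.4 CPM in WT (exact permutation p = 0.329), and lymphatic endothelial markers 30.0 to 43.1 CPM in AMKO and 29.9 to 49.4 CPM in WT (exact permutation p = 0.294). The hepatocyte sum was 18.3 to 30.7 CPM in AMKO and 1.11 to 29.4 CPM in WT (exact permutation p = 0.0714), and none of these 4 lists had a called gene. The acinar sum had an exact permutation p = 0.584, with the transcription factor genes Bhlha15 and Ptf1a called higher, and the platelet sum one of 0.911.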

How the data were processed

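Total RNA of 12 caerulein-treated mouse pancreas samples was sequenced. The submitters' processing notes name HISAT2 2.0.4 and mm10. Which counter, annotation and strand setting were used, and how reads with several matches were treated, no source used here says. The authors deposited raw counts per gene in one table, whose columns were matched to samples by title. No label ties a sample to a named mouse, so p-values measure the spread between samples, which may be technical. Library pairs within a genotype all differed beyond sampling noise (chi-square divided by its degrees of freedom 9.93 to 73.3).

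In R 4.3.3, edgeR 4.0.16 fitted genotype alone to the counts (TMM scaling, filterByExpr), and its quasi-likelihood test was adjusted by Benjamini-Hochberg across the 13743 genes that passed the filter. Calls are adjusted p values under 0.05. CPM use TMM-scaled library sizes. Log2 CPM used a prior count of 2. Marker sums were compared by exact permutation over samples, adjusted over 11 lists. Sums add CPM, so the most abundant marker weighs most, also in rank differences from a sum. Krt19 averaged 1073 of 1415 CPM of the duct sum in AMKO and 1114 of 1593 CPM in WT. Lyz2 averaged 422.3 of 847.9 CPM of the macrophage sum in AMKO and 250 of 584 CPM in WT. In the lymphatic endothelial sum Lyve1 averaged 15.99 of 35.96 CPM in AMKO and 13.9 of 40.55 CPM in WT. In the adipocyte sum Fabp4 averaged 96.77 of 150.9 CPM in AMKO and 130.1 of 254.1 CPM in WT. Positions and exon lengths are from GENCODE M21 (GRCm38, the assembly mm10 names), and BLAST 2.17.0 found no copy of the 10 genes at 95% identity over 300 bases. Alternatives were other scalings and filters, DESeq2 1.42.0, limma 3.58.1 voom, a replicate block, a macrophage covariate and fits without libraries.

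Named genes are the 10 members, Axl, called genes of the lists, the 2 most abundant of lists without a call, and the 3 genes nearest to each member among genes whose mean log2 CPM reached 1. Other genes named, such as the integrin partners and LXR genes, were chosen after their values were seen. Members and lists were chosen with earlier results of these data known.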

Additional observations from a re-analysis of the deposited data

Results flagged for a closer look

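Over 38 sets of 6 libraries searched (uptake genes and marker sums in each genotype), 2 held a library far from the other 5, where chance marks about 1 in 20. Neither was an uptake gene. The summed blood endothelial markers of AMKO 6 stood at 94.5 CPM, below the other AMKO libraries, with a gap of 0.729 of the range of log2 values. The summed B and T cell markers of WT 3 stood at 0.734 CPM, below the other WT libraries, with a gap of 0.686 of the range.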

How the results depend on the processing

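Itgav kept its direction under every alternative run, between -0.39 and -0.30, but its call was lost (0 of the 9 uptake genes called lower) with total counts, without the count filter, with WT 4 to 6 or WT 1 to 3 as the controls, and without the 4 libraries lowest in neutrophil markers, and leaving out 1 library gave 0 to 1. Over all genes, 794 calls became 456 with total counts, 1302 with DESeq2, 1664 with voom, 167 with WT 4 to 6, 231 with WT 1 to 3, 98 without the 4 libraries, 1829 with the macrophage covariate and 2115 without AMKO 1 and AMKO 5 (a choice made after seeing the data). Leaving out 1 library gave 411 (without AMKO 3) to 1140 (without AMKO 5), with 421 without AMKO 2, 524 without WT 2 and 505 without WT 4. Pathway genes called lower were 3, against 5 with DESeq2 and with voom, 8 with the covariate, 0 with WT 4 to 6, WT 1 to 3 or without the 4 libraries, and 1 to 3 without 1 library. Those called higher were 1, against 2 with RLE scaling, DESeq2 and the covariate, 4 with voom, 3 without AMKO 1 and AMKO 5, 0 with total counts, no filter, the replicate block, WT 4 to 6, WT 1 to 3 or without the 4 libraries, and 0 to 2 without 1 library. Fitted log2 values turned sign, none of them called: Timd4 with voom (-1.35), the covariate (-0.78), WT 4 to 6 (-0.11) and without AMKO 1 and AMKO 5 (-1.99), Stab1 with total counts (-0.022), voom (-0.12), WT 1 to 3 (-0.039), the covariate (-0.16) and without AMKO 1 and AMKO 5 (-0.27), Cd36 with RLE (0.0096), no filter (0.0037), DESeq2 (0.0089), WT 1 to 3 (0.033) and without the 4 libraries (0.094), Itgb3 with voom (-0.27), WT 1 to 3 (-0.0014), the covariate (-0.021) and without AMKO 1 and AMKO 5 (-0.44), Lrp1 with WT 4 to 6 (0.17) and without the 4 libraries (0.020), Elmo1 without AMKO 1 and AMKO 5 (-0.056), and Abca1 with voom (-0.030), WT 1 to 3 (-0.0077) and without AMKO 1 and AMKO 5 (-0.061). Without 1 library Timd4 ran from -0.91 to 0.36, Stab1 from -0.11 to 0.12, Cd36 from -0.12 to 0.076, Itgb3 from -0.25 to 0.45 and Lrp1 from -0.17 to 0.11. The difference of summed B and T cell markers then ran from -0.177 to 30.2 CPM and that of platelet markers from -0.0827 to 0.0346 CPM. The causes were not tested.

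No label says what a shared replicate number stands for, and the check of pairing was mixed: same-numbered libraries correlated at 0.18 to 0.35 for 4 numbers and at -0.16 and -0.11 for the other 2, and 1 of 6 matched its own number best. The 4 libraries lowest in neutrophil markers carry numbers 3 and 6 in both genotypes. With no label and a mixed check, whether the numbers pair the samples was not settled. The main fit did not use them as pairs. With the replicate block Itgav was -0.35 (SE 0.065 against 0.094 without it, adjusted p = 0.0133, edgeR), Timd4 -0.41 and Stab1 -0.024. Ptk2 and Rab7 were no longer called with the block (adjusted p = 0.0736 and 0.0927), while Dock5 was called lower (adjusted p = 0.04275). In all, 910 genes were called with it.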
